A study of Mus musculus with 6 samples.

Results

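The genes described here carry growth hormone, insulin and leptin signals into the cell: the receptors Ghr, Insr and Lepr, the adaptors Irs1 and Irs2, the regulatory subunit Pik3r1 of PI3 kinase, and the feedback inhibitors Socs2, Socs3 and Cish. They were chosen by symbol and every probe of each was used, which gave 9 genes with 13 probes among the 18138 gene symbols and 25697 probes of a mouse expression BeadChip. The levels were measured in the lung of male FVB pups (FVB/N in the methods) at postnatal day 6, on 6 arrays, 3 of hSRY-ON and 3 of hSRY-OFF mice. All pups came from work with the Signalox-hSRY transgene, a single copy placed at the H11 locus on chromosome 11. In it the broadly active actin (CAG) promoter drives a floxed DsRed2 marker that keeps a FLAG-tagged human SRY and an EGFP tracer silent until Cre removes the marker. In hSRY-ON pups, Cre protein carried over from the oocyte of a Ddx4-Cre mother had opened the transgene in the single-cell embryo, and the pups chosen for the arrays had not inherited Ddx4-Cre itself. In hSRY-OFF pups the transgene was not recombined, by the methods' use of the name. Littermates without the transgene served as controls elsewhere in the study, so that the genotype of the hSRY-OFF arrays rests on the label. A single transgenic line was used, and the array has no probe for human SRY, so the state of the transgene could not be read from the arrays.

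Growth hormone binds the receptor GHR at the cell surface, which brings the kinase JAK2 and the transcription factor STAT5 together. STAT5 then turns on target genes that include Igf1 and the inhibitors Cish and Socs2, and the products of the latter dampen the receptor in turn. Leptin, a hormone of fat cells, signals through its receptor LEPR, JAK2 and STAT3, whose target Socs3 closes a similar loop. Insulin signals through the receptor INSR, which phosphorylates the adaptors IRS1 and IRS2. These recruit PI3 kinase through its regulatory subunits, of which PIK3R1 is the main one, and the kinase AKT then keeps FOXO transcription factors out of the nucleus. In the lung, growth hormone and IGF1 signals take part in postnatal growth of the alveoli, and leptin and insulin receptors have been studied in the maturation of the epithelium.

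Detection is a probe's rank against the negative control beads of its array, and a probe was tested where its detection p-value was under 0.05 on at least 3 of the 6 arrays. This held for 13841 probes (53.9%), with 13191 to 14134 probes detected per array and median intensities of 177.1 to 204.0 as deposited. Levels below are normalized log2 intensities, changes are hSRY-ON minus hSRY-OFF on that scale, and a probe was called at an adjusted p under 0.05 from limma over all tested probes. Correlations between arrays were 0.991 to 0.993 within hSRY-OFF, 0.972 to 0.980 within hSRY-ON and 0.935 to 0.959 between the groups. The median SD of a probe was 0.130 in hSRY-OFF and 0.223 in hSRY-ON, and the hSRY-ON arrays were the more spread out for 73.7% of the probes. All 10 markers of lung tissue were tested, with mean levels of 12.81 to 12.91 in hSRY-OFF and 12.84 to 13.11 in hSRY-ON. The mean hides single genes: Sftpb and Sftpd were called higher in hSRY-ON and 8 were not called. This is 20% called, beside 26.9% of all tested probes. In whole lung RNA, fewer cells of a type and less RNA per cell cannot be told apart.

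Of the 13 probes, 9 probes of 6 genes passed the detection filter. Of these, 3 probes in 2 genes were called, Irs2 with 1 probe and Pik3r1 with 2, which is 33.3% beside 26.9% of all tested probes. Irs2 and 1 Pik3r1 probe were higher in hSRY-ON, beside 13.6% of all tested probes called higher. The other called probe of Pik3r1 was lower, beside 13.3% called lower. The share of called probes is thus near that of the array as a whole. Ghr, Socs2, Socs3 and Cish had no called probe, and none of the 4 probes for Insr, Irs1 and Lepr was tested. The median change of the 9 tested probes was 0.18 and their median absolute change 0.38, beside -0.03 and 0.32 over all tested probes. The groups did not overlap in 4 of the 9 probes, beside 46.6% of all tested probes. Probes of a gene share their RNA and are not separate evidence, and with 3 arrays a group the p-values measure only the spread among these pups.

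**Figure D1:**
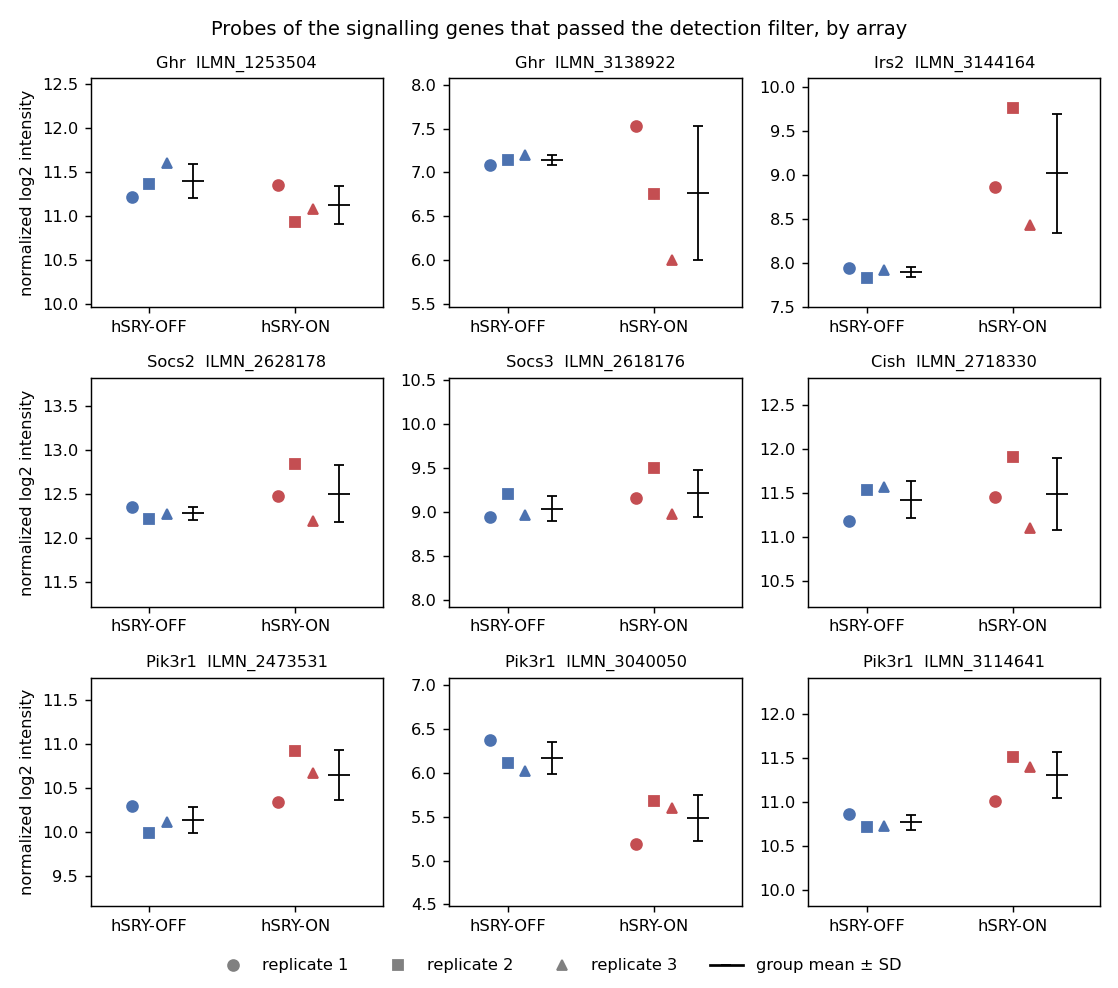
Normalized log2 intensity of the 9 tested probes on each of the 6 arrays, with 1 panel per probe, 1 symbol shape per replicate and the group mean ± SD as a bar. The Irs2 panel shows all hSRY-ON arrays above all hSRY-OFF arrays with a wide hSRY-ON spread, while the Ghr, Socs2, Socs3 and Cish panels show overlapping groups.

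The promoters of the 2 adaptor genes are shown because Irs2 was called and Irs1 did not pass the detection filter. Sequences are from RefSeq on GRCm38.p6, written 5′ to 3′ on the gene's strand. Capitals mark letters that match CACGTG, the E-box, or TGTTTTG, an element to which FOXO factors can bind (the FOXO element below).
Irs2, chr8:11008930-11009179, minus strand, bases -250 to -1 before the start: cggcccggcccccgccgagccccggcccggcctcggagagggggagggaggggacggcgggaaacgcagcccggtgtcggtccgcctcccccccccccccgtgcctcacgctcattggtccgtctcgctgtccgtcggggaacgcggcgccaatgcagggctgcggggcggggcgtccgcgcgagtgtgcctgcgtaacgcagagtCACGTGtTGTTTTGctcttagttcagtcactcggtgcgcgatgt
Irs1, chr1:82291440-82291589, minus strand, bases -150 to -1 before the start: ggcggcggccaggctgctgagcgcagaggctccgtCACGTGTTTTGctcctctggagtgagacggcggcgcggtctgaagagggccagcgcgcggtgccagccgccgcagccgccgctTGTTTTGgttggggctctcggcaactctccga
In Irs2 the E-box begins at base -44 and the FOXO element at base -37, 1 base after it ends. In Irs1 the E-box begins at base -115 and runs into a FOXO element at base -111 that overlaps it, and a further FOXO element begins at base -32. Over 32851 promoter windows of 300 bases, read on both strands, 7.15% held the E-box and 6.28% held the FOXO element. The windows reach from 250 bases before to 50 after a start, and 7 of the 9 genes had at least 1 window, with 10 in all. The E-box was in 2 of these 10 and the FOXO element in 3. The other form of it that was searched, TGTTTAC, was in 0 of the 10 and in 3.65% of all windows. These motifs were chosen after the sequences had been seen, and a match is a string of letters, not a shown site.

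The growth hormone receptor Ghr, which carries the growth hormone signal across the membrane, was measured by 2 probes. ILMN_1253504 stood at 11.22, 11.36 and 11.60 in hSRY-OFF and at 11.35, 10.93 and 11.08 in hSRY-ON. The groups overlapped, since hSRY-ON replicate 1 lay inside the hSRY-OFF range while the other hSRY-ON arrays lay below it. The change was -0.27 (SE 0.16, 95% interval -0.66 to 0.11, limma adjusted p = 0.243), and it was -0.10 with median scaling. Deposited intensities were 2482, 2490 and 3727 in hSRY-OFF and 2522, 2084 and 2454 in hSRY-ON.

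The other Ghr probe, ILMN_3138922, stood at 7.08, 7.14 and 7.20 in hSRY-OFF and at 7.53, 6.76 and 6.01 in hSRY-ON. The hSRY-ON arrays lay on either side of a narrow hSRY-OFF range, with an SD of 0.76 against 0.06. The change was -0.38 (SE 0.35, 95% interval -1.19 to 0.44, limma adjusted p = 0.448). Without background correction it was -0.15. It hung on single arrays: without hSRY-ON replicate 1 it was -0.77 and was called (limma adjusted p = 0.0451), and without hSRY-ON replicate 3 it was 0.0041 (limma adjusted p = 0.991). Neither Ghr probe thus differed between the groups by more than the spread of these arrays, and the intervals include levels in hSRY-ON that are changed by up to -0.66 or -1.19.

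The insulin receptor Insr and the leptin receptor Lepr were not well above background. The Insr probe ILMN_2628026 was detected on 0 of 6 arrays, with intensities of 165, 142 and 164 in hSRY-OFF and 169, 160 and 172 in hSRY-ON. Its normalized levels of 4.59 to 4.97 in hSRY-OFF lay just below the 4.99 to 5.05 of hSRY-ON, and in a fit of every probe of the array without a filter the change was 0.29 (limma adjusted p = 0.186).

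For Lepr, the probe ILMN_2600710 had intensities of 148, 134 and 153 in hSRY-OFF and 137, 140 and 142 in hSRY-ON. The other Lepr probe, ILMN_2736578, had 157, 159 and 168 against 159, 166 and 159. Neither Lepr probe was detected on any array, and their changes without a filter were -0.04 and 0.06 (limma adjusted p = 0.846 and 0.862). At signals this close to background a change in either receptor was not detectable on this array. Of the 3 receptors, Ghr alone was thus measured above background in this tissue.

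**Figure D2:**
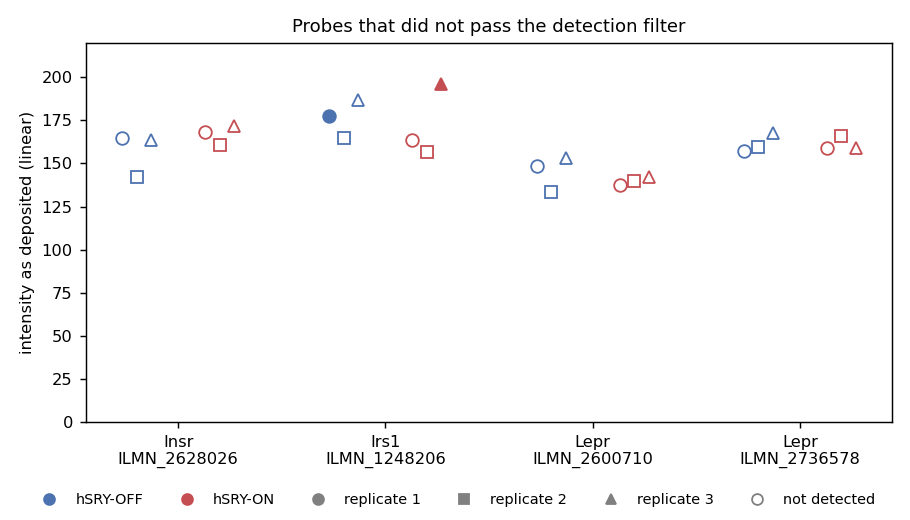
Deposited linear intensity of the 4 probes of Insr, Irs1 and Lepr that did not pass the detection filter, on each of the 6 arrays, with colour for the group, shape for the replicate and open symbols where the probe was not detected. The points lie between 134 and 196, and Irs1 is the probe with filled symbols, on 2 arrays.

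The adaptor Irs1, which links the insulin and IGF1 receptors to PI3 kinase, was detected on hSRY-OFF replicate 1 and hSRY-ON replicate 3 only. Its probe ILMN_1248206 had intensities of 178, 165 and 187 in hSRY-OFF and 164, 157 and 196 in hSRY-ON. The groups overlapped, and the change without a filter was -0.03 (limma adjusted p = 0.964).

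The adaptor Irs2, which serves the same receptors, was the member with the largest change of all 9 tested probes. ILMN_3144164 stood at 7.94, 7.83 and 7.92 in hSRY-OFF and at 8.86, 9.76 and 8.43 in hSRY-ON. All hSRY-ON arrays were above all hSRY-OFF arrays, most of all hSRY-ON replicate 2. The means were 7.90 ± 0.06 and 9.02 ± 0.68 (SD, n = 3 each), a change of 1.12 (SE 0.31, 95% interval 0.38 to 1.85, limma adjusted p = 0.0379) or 2.17-fold. This absolute change exceeded that of 91.9% of all tested probes. The deposited intensities, 392, 352 and 440 in hSRY-OFF and 550, 974 and 501 in hSRY-ON, did not overlap either.

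The call for Irs2 was lost with fewer hSRY-OFF arrays: without hSRY-OFF replicate 1, 2 or 3 the limma adjusted p was 0.103, 0.116 or 0.0947. It was kept without hSRY-ON replicate 1, 2 or 3 (limma adjusted p = 0.0468, 0.0313 or 0.0127). With all 6 arrays the call was lost without the detection filter (limma adjusted p = 0.0599) and with the replicate number as a block (limma adjusted p = 0.0545). Without hSRY-ON replicate 2 the change was smaller, at 0.74, and was called (limma adjusted p = 0.0313). Over the alternatives it ran from 0.74 to 1.40, higher in hSRY-ON in each.

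**Figure D3:**
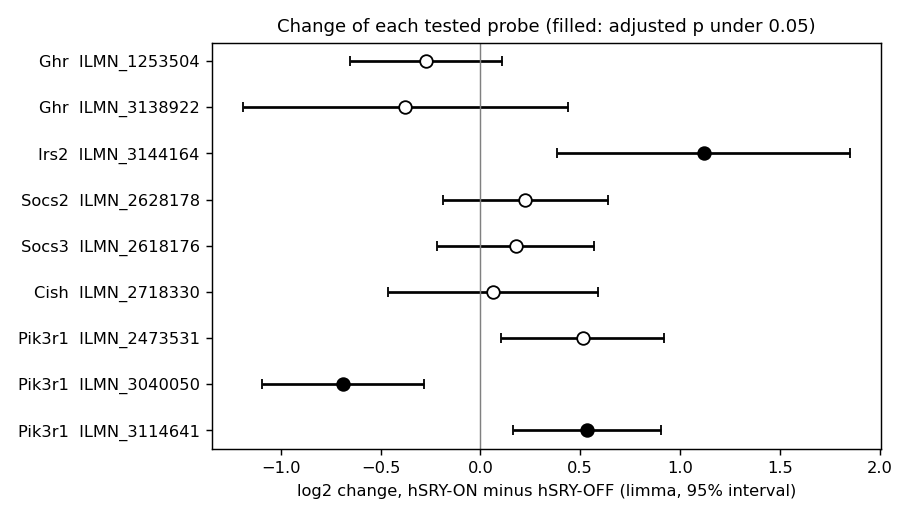
Change of each of the 9 tested probes, hSRY-ON minus hSRY-OFF in log2 units, with its 95% interval from limma and filled symbols for an adjusted p under 0.05. Irs2 lies farthest from 0 at 1.12, and the 3 Pik3r1 probes lie at 0.51, -0.69 and 0.54, on both sides of 0.

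Pik3r1 encodes the regulatory subunits of PI3 kinase, which hold the catalytic subunit at the phosphorylated adaptors, and its 3 probes did not move together. ILMN_3114641 stood at 10.86, 10.71 and 10.72 in hSRY-OFF and at 11.01, 11.51 and 11.39 in hSRY-ON. All hSRY-ON arrays were above all hSRY-OFF arrays, replicate 1 by the least. The change was 0.54 (SE 0.16, 95% interval 0.16 to 0.91, limma adjusted p = 0.0440) or 1.45-fold.

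The probe ILMN_2473531 stood at 10.29, 9.996 and 10.12 in hSRY-OFF and at 10.35, 10.92 and 10.68 in hSRY-ON. These groups did not overlap either, but the change of 0.51 (SE 0.17, 95% interval 0.10 to 0.92) had a limma adjusted p of 0.0671 and was not called.

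The dimmest probe, ILMN_3040050, went the other way: it stood at 6.37, 6.11 and 6.02 in hSRY-OFF and at 5.18, 5.67 and 5.59 in hSRY-ON, where it was detected on 2 of 3 arrays. All hSRY-ON arrays lay below all hSRY-OFF arrays. The change was -0.69 (SE 0.17, 95% interval -1.09 to -0.28, limma adjusted p = 0.0268), a level 1.61-fold higher in hSRY-OFF. This probe lies near background, with intensities of 225, 199 and 225 in hSRY-OFF and 173, 181 and 190 in hSRY-ON, and its change was -0.20 without background correction (limma adjusted p = 0.0865).

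As deposited, the intensities of the brighter probes overlapped between groups, at 1953, 1652 and 2112 against 2004, 3088 and 3013 for ILMN_3114641 and at 1377, 1083 and 1458 against 1290, 2070 and 1909 for ILMN_2473531. The calls changed with single arrays and with the processing. For ILMN_3114641 the limma adjusted p was 0.100, 0.139 and 0.123 when hSRY-OFF replicate 1, 2 or 3 was left out, 0.112 for hSRY-ON replicate 2 and 0.0876 for hSRY-ON replicate 3, and it was 0.0570 without the detection filter. For ILMN_3040050 it was 0.102, 0.0798 and 0.0551 without hSRY-OFF replicate 1, 2 and 3. ILMN_2473531 was called without hSRY-ON replicate 1 (limma adjusted p = 0.0200), and also without background correction, with the larger offset, with a variance trend and with array weights (0.0321 to 0.0487).

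Pik3r1 is known to give long and short transcripts from separate starts, and RefSeq holds 2 promoter windows for it, 75587 bases apart. They are shown because the probes disagree in sign. The deposited table gives no probe sequences, so which transcript each probe reads was not tested.
Pik3r1 start 1, chr13:101768218-101768467, minus strand, bases -250 to -1: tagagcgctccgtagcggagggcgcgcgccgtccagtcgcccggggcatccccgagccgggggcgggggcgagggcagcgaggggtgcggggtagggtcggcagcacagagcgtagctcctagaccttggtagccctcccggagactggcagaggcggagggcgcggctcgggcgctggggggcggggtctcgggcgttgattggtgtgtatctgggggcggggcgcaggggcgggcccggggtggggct
Pik3r1 start 2, chr13:101692631-101692880, minus strand, bases -250 to -1: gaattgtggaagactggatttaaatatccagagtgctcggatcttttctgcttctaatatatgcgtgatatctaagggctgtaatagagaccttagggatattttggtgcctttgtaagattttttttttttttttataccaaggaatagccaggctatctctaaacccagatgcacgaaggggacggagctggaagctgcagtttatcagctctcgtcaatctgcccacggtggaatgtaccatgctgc
Start 1 has a GC content of 76.4% and start 2 of 42.4%. Neither window held any of the 4 motifs searched, which are the 3 above and TTCNNNGAA.

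The 4 other genes whose profile over the 6 arrays was nearest to that of ILMN_3040050, the member probe with the smallest p, were Fzd4, Cdc25a, Rfwd3 and Cbx2. The root mean square difference of values centred on the hSRY-OFF mean was 0.0592 to 0.0696 log2 units, and their changes were -0.72 to -0.65. These genes were picked for the smallest differences among all tested probes, so that changes close to that of the Pik3r1 probe follow from the choice.

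Cish, Socs2 and Socs3 encode inhibitors that bind activated cytokine receptors or JAK kinases and stop the signal. Stretches of the Cish and Socs3 promoters are shown because these genes are read as targets of STAT factors, with capitals where the letters match TTCNNNGAA, the spaced half-sites that STAT dimers can bind.
Cish, chr9:107296654-107296683, plus strand, bases -5 to 25 around the start: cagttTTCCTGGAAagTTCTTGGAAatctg
Socs3, chr11:117969487-117969536, minus strand, bases -170 to -121 before the start: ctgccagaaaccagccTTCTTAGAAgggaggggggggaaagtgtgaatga
In Cish, 2 matches begin at bases 1 and 12, and in Socs3 a match begins at base -154. TTCNNNGAA was in 8.3% of the 32851 windows and in 2 of the 10 windows of these genes. Promoter windows of Socs2 and Insr were not analysed here.

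Cish, a target of STAT5 and an inhibitor of growth hormone signalling, stood at 11.18, 11.53 and 11.57 in hSRY-OFF and at 11.45, 11.91 and 11.10 in hSRY-ON (ILMN_2718330). The hSRY-ON arrays spanned the hSRY-OFF range on both sides. The change was 0.06 (SE 0.22, 95% interval -0.46 to 0.59, limma adjusted p = 0.854). Its sign turned to -0.06 without hSRY-OFF replicate 1 (limma adjusted p = 0.894). With hSRY-ON replicate 2 left out the change was -0.15 (limma adjusted p = 0.607), and with hSRY-ON replicate 3 left out it was 0.26.

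Socs2, whose product limits growth hormone signalling, stood at 12.36, 12.21 and 12.27 in hSRY-OFF and at 12.48, 12.84 and 12.20 in hSRY-ON (ILMN_2628178). In hSRY-ON, replicates 1 and 2 were above all hSRY-OFF arrays and replicate 3 was below them. The change was 0.22 (SE 0.18, 95% interval -0.19 to 0.64, limma adjusted p = 0.374). It was 0.06 without hSRY-ON replicate 2, 0.37 without hSRY-ON replicate 3 and 0.44 with median scaling, and it was called in none of these.

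Socs3, the inhibitor that leptin and interleukin-6 type cytokines raise, stood at 8.94, 9.20 and 8.97 in hSRY-OFF and at 9.16, 9.50 and 8.98 in hSRY-ON (ILMN_2618176). The groups overlapped, with hSRY-ON replicate 2 the highest of all 6 arrays. The change was 0.18 (SE 0.17, 95% interval -0.22 to 0.57, limma adjusted p = 0.460). It was 0.03 without hSRY-ON replicate 2 and 0.29 without hSRY-ON replicate 3, and was called in neither. None of the 3 inhibitors differed by more than the spread among arrays, and their intervals include changes of up to 0.57 to 0.64.

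The hSRY-ON pups were not alike in these genes. In each of the 9 tested probes the SD was larger among hSRY-ON arrays, beside 73.7% of all tested probes. Replicate 2 was the highest hSRY-ON array in 7 of the 9 probes, beside 33.7% of all tested probes, and replicate 3 was the lowest in 5 of 9, beside 30.9%. Of the 3 inhibitors, Socs2, Socs3 and Cish each had the order replicate 2, replicate 1, replicate 3 from high to low, as did Irs2. These probes were read from the same 3 RNA samples, so the shared order is a description of these pups.

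**Figure D4:**
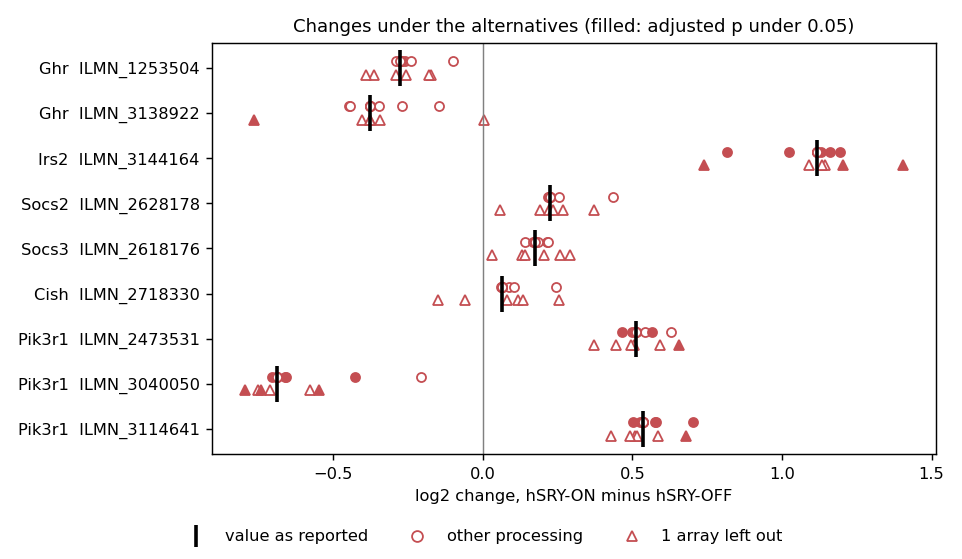
Change of each of the 9 tested probes, hSRY-ON minus hSRY-OFF in log2 units, as reported (bar), under other processing (circles) and with 1 array left out (triangles), filled for an adjusted p under 0.05. Irs2 stays between 0.74 and 1.40, while Cish, between -0.15 and 0.26, and the dimmer Ghr probe fall on both sides of 0.

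Around these genes, 9 lists held other parts of the same pathways, with 146 genes in all, of which 140 were on the array and 103 were tested. Of the 103, 19 were called higher in hSRY-ON, 9 were called lower and 75 were not called. The called share of 27.2% is close to the 26.9% of the whole array, and the median change was 0.12. By list, the called genes numbered 8 of 13 STAT3 targets, 6 of 18 inhibitors, 5 of 13 genes of the FOXO list, 4 of 18 of PI3 kinase, AKT and mTOR and 3 of 11 of glucose transport and metabolism. The other 4 lists had 1 or 0 called, and differences between lists were not tested.

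**Figure D5:**
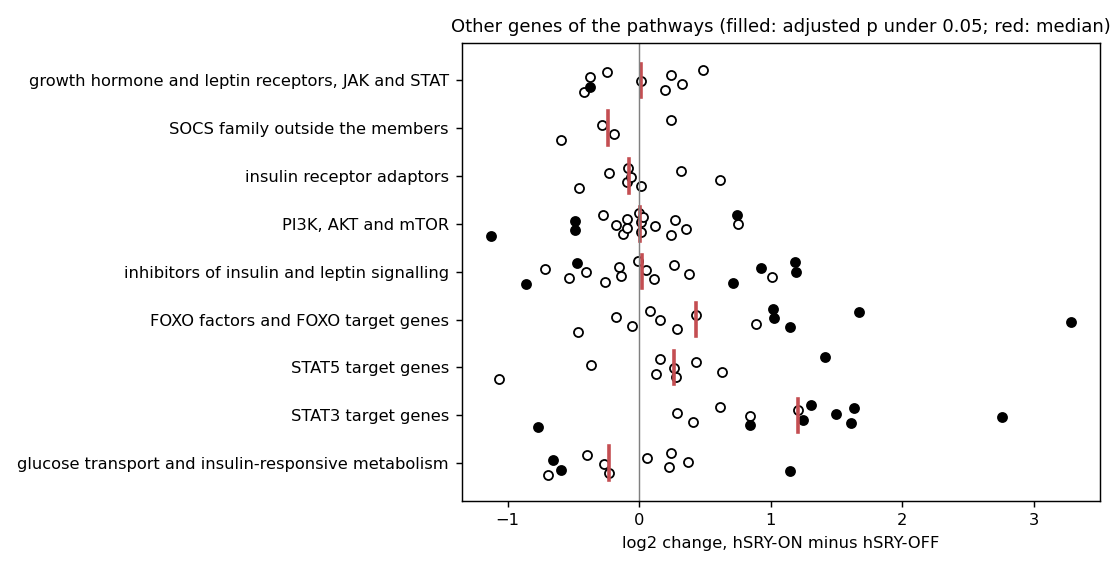
Change of each tested gene of the 9 pathway lists, hSRY-ON minus hSRY-OFF in log2 units, with 1 row per list, filled symbols for an adjusted p under 0.05 and the list's median in red. The STAT3 target genes lie mostly to the right with a median of 1.21, the FOXO list has a median of 0.43, and the lists of receptors, adaptors and kinases have medians of -0.07 to 0.02.

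Upstream, 9 of 14 genes for growth hormone, leptin, related receptors, JAK kinases and STAT factors were tested, and 1 was called. The called share was 11.1%, beside 26.9% of all tested probes. Leprotl1, an endosomal protein that lowers growth hormone receptor at the surface, fell from 11.01, 11.08 and 10.96 in hSRY-OFF to 10.73, 10.66 and 10.54 in hSRY-ON. The change was -0.37 (SE 0.11, limma adjusted p = 0.0487), and it was called in 1 of the 6 fits that left out an array, namely hSRY-ON replicate 1. Its limma adjusted p was 0.0873 to 0.163 in the others. The call was also lost with cyclic loess (0.0758) and with median scaling, where the change was -0.22 (0.316). Leprot, a gene of the same list, went the other way, at 12.37, 12.34 and 12.41 in hSRY-OFF and 12.54, 12.69 and 12.62 in hSRY-ON. Its change of 0.24 was not called (limma adjusted p = 0.146).

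The kinase and factors next to Ghr and Lepr, named here after their values were seen, were not called. Jak2 had a change of 0.19 (ILMN_1245579, limma adjusted p = 0.372). Stat3 had a change of 0.49 with its brightest probe (ILMN_2589790, limma adjusted p = 0.0985). Its other tested probes had changes of 0.40 (ILMN_3096144, limma adjusted p = 0.148) and 0.15 (ILMN_2698046, limma adjusted p = 0.614). Stat5a had a change of -0.37 (ILMN_2976191, limma adjusted p = 0.245), and Stat5b was not detected on any array. Of the other SOCS genes, 4 of 5 were tested and 0 were called by limma, with 0 at an unadjusted p under 0.05. Of the other adaptors of the insulin receptor, 8 of the 11 on the array were tested and 0 were called by limma, with 2 at an unadjusted p under 0.05.

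Downstream of the adaptors, 18 of 24 genes of PI3 kinase, AKT and mTOR were tested, 1 called higher and 3 lower. The called share was 22.2%, beside 26.9% of all tested probes. Pdpk1, the kinase that activates AKT, rose by 0.74 (SE 0.21, limma adjusted p = 0.0411) with its brightest probe, while its other tested probe had a change of -0.16 (limma adjusted p = 0.694). The catalytic subunit Pik3ca fell by 1.13 (limma adjusted p = 0.0189). On 1 of the hSRY-ON arrays it was detected, so that it passed the filter mainly through hSRY-OFF and a fall was in part built in. The regulatory subunit Pik3r3 stood at 10.72, 10.75 and 11.01 in hSRY-OFF and at 10.30, 10.26 and 10.46 in hSRY-ON, and fell by 0.49 (limma adjusted p = 0.0351). Mlst8, a subunit of the mTOR complexes, fell by 0.49 (limma adjusted p = 0.0259).

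Each of these 4 calls was lost with some arrays left out. Pdpk1 and Pik3r3 lost theirs when any 1 hSRY-OFF array, or hSRY-ON replicate 1 or 2, was left out, with limma adjusted p of 0.0594 to 0.137 and 0.0559 to 0.111. Mlst8 lost its call when any 1 hSRY-OFF array or hSRY-ON replicate 2 was left out, at 0.0643 to 0.107. Pik3ca lost its call when hSRY-OFF replicate 2 or 3 or hSRY-ON replicate 2 was left out, at 0.0587 to 0.0760, and its change was -0.34 without background correction. With median scaling Mlst8 and Pik3r3 were not called (limma adjusted p = 0.127 and 0.128). Pdpk1 was not called without the detection filter (0.0605), and its change was 0.45 without background correction.

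Of 23 inhibitors of insulin and leptin signalling, 18 were tested, 4 called higher and 2 lower. The called share was 33.3%, beside 26.9% of all tested probes. Ptpn6, the SHP-1 phosphatase that blood cells make in quantity, stood at 9.78, 9.66 and 9.86 in hSRY-OFF and at 10.41, 11.03 and 10.63 in hSRY-ON. It rose by 0.92 (SE 0.17, limma adjusted p = 0.0107). Cblc, a ubiquitin ligase of epithelia, rose by 1.18 (limma adjusted p = 0.0112), and by 0.47 without background correction. Inpp5d, the SHIP1 phosphatase of blood cells, rose by 1.19 (limma adjusted p = 0.0243). Trib2, a pseudokinase, fell by 0.86 (limma adjusted p = 0.0181), and Grb10, an adaptor that inhibits the insulin and IGF1 receptors, fell by 0.47 (limma adjusted p = 0.0397).

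Without 1 array, Inpp5d lost its call for any hSRY-OFF array (limma adjusted p = 0.0575 to 0.0859). Trib2 lost its call for any hSRY-OFF array or hSRY-ON replicate 2 (0.0505 to 0.0663), and Grb10 for any hSRY-OFF array or hSRY-ON replicate 1 or 2 (0.0660 to 0.131). With median scaling the change of Grb10 was -0.21 and was not called (0.360). Markers of macrophages were higher in hSRY-ON too: 6 of 9 tested were called higher (66.7%), beside 13.6% of all tested probes. Their mean level was 8.42 to 8.67 in hSRY-OFF and 9.64 to 10.25 in hSRY-ON. Itgax, of the same list, was not detected on any array. All 5 tested markers of lymphocytes were called lower, beside 13.3% of all tested probes. Their means were 7.67 to 7.75 in hSRY-OFF and 5.93 to 7.12 in hSRY-ON, and Cd4, Cd8a, Ms4a1 and Ptprc were not detected. The part of these cells in the changes was not tested.

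FOXO factors, which insulin signalling restrains, and their target genes had 13 of 22 tested, 5 called higher and 0 lower. This makes 38.5%, beside 26.9% of all tested probes. This list, too, was chosen with earlier results of these data known, so its share is a description. Pdk4, the kinase that closes pyruvate dehydrogenase in fasting, stood at 6.66, 6.89 and 6.93 in hSRY-OFF and at 10.31, 11.08 and 8.95 in hSRY-ON. Every hSRY-ON array was far above every hSRY-OFF array, and the change was 3.29 (SE 0.48, limma adjusted p = 0.00477) or 9.76-fold. Fbxo32, the atrogin-1 ubiquitin ligase of muscle wasting, stood at 7.20, 7.45 and 7.36 in hSRY-OFF and at 8.81, 9.46 and 8.75 in hSRY-ON. It rose by 1.67 (SE 0.21, limma adjusted p = 0.00284). Ppargc1a, a coactivator of oxidative metabolism, rose by 1.15 (SE 0.19, limma adjusted p = 0.00645), and by 0.40 without background correction.

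The mean level of the 13 tested genes of the FOXO list was 8.62 to 8.68 in hSRY-OFF and 9.40, 9.61 and 9.12 in hSRY-ON replicates 1, 2 and 3. That order of the hSRY-ON pups is the order of Irs2, which stood at 8.86, 9.76 and 8.43. It is not particular to the FOXO list. The macrophage markers had it, at 9.79, 10.25 and 9.64. So did the STAT3 targets, at 9.91, 10.10 and 9.89, with replicates 1 and 3 close together. Lists with little change between the groups had it as well. The inhibitors of insulin and leptin signalling stood at 9.24, 9.38 and 9.12, with a change of 0.13 in their mean level. The insulin receptor adaptors had the same order, with a change of 0.0024 in their mean level. The order was thus not limited to lists that were higher in hSRY-ON. Other lists did not, such as the neutrophil markers at 8.25, 9.13 and 10.68. Genes that respond to glucocorticoids shared the order too. Of these, 9 of 10 tested were called higher (90%), beside 13.6% of all tested probes. Their mean level was 10.33 to 10.65 in hSRY-OFF and 12.01, 12.30 and 11.58 in hSRY-ON replicates 1, 2 and 3. Their part in the change of Irs2 was not tested.

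Of the target genes of STAT5, the factor below Ghr, 9 were tested and 1 was called (11.1%, beside 26.9% of all tested probes). Cdkn1a, an inhibitor of the cell cycle, rose by 1.41 (limma adjusted p = 0.0155), and lost its call without hSRY-OFF replicate 1 or 2 (0.0579 to 0.0603). Igf1, the growth factor that mediates much of growth hormone action, was named here after its values were seen. Its brightest probe, ILMN_1225565, stood at 10.03, 9.65 and 9.81 in hSRY-OFF and at 8.47, 8.26 and 9.55 in hSRY-ON. The hSRY-ON arrays were lower without overlap, replicate 3 by a small margin. The change of -1.07 (SE 0.33, limma adjusted p = 0.0502) was not called, but it was called under 8 of 16 alternatives. Among these, without hSRY-ON replicate 3 it was -1.46 (limma adjusted p = 0.00255), and with median scaling it was -1.04 (0.0444). The other tested Igf1 probe, ILMN_2647594, was detected on 1 hSRY-ON array and had a change of -1.62 (SE 0.36, limma adjusted p = 0.0186). It passed the filter mainly through hSRY-OFF, so that a lower level in hSRY-ON was in part built in. Its call is not separate support. In both Igf1 probes all hSRY-ON arrays were below all hSRY-OFF arrays. Groups did not overlap in 46.6% of all tested probes. They overlapped in Cish and Socs2, the STAT5 targets among the inhibitors. The part of STAT5 in these values was not tested.

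Of the target genes of STAT3, the factor below Lepr and the interleukin-6 receptor, 13 were tested, 7 called higher and 1 lower. That is 61.5%, beside 26.9% of all tested probes. The list was chosen with earlier results of these data known, so the share is a description and not a test of STAT3 targets. Hp, the acute phase protein haptoglobin, stood at 12.84, 12.78 and 12.69 in hSRY-OFF and at 14.30, 14.47 and 14.44 in hSRY-ON. It rose by 1.63 (SE 0.11, limma adjusted p = 0.000598), and the arrays of each group lay close together. Osmr, the oncostatin M receptor, rose by 1.25 (limma adjusted p = 0.00671), and Timp1, an inhibitor of metalloproteinases, rose by 0.84 (limma adjusted p = 0.00685).

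Myc, the growth-promoting transcription factor, fell by 0.77 (limma adjusted p = 0.0183), and lost its call without hSRY-OFF replicate 1 or 2 (0.0674 to 0.0761). It was detected on 1 hSRY-ON array, so that it passed the filter mainly through hSRY-OFF and a fall was in part built in. Without background correction its change was -0.22 and was not called (0.0721). Socs3, a STAT3 target held apart from this list, had a change of 0.18 and was not called. Markers of neutrophils, which carry several of these proteins, had means of 7.90 to 8.21 in hSRY-OFF and 8.25 to 10.68 in hSRY-ON. Of these markers, 3 of 8 were called higher (37.5%), beside 13.6% of all tested probes. Of the hepatocyte markers, 3 of 10 were tested and all 3 were called higher, beside 13.6% of all tested probes. Their means were 5.15 to 5.53 in hSRY-OFF and 6.51 to 7.56 in hSRY-ON. Of these, Ahsg and Apoa1 were detected on 0 hSRY-OFF arrays, so that they passed the filter through hSRY-ON and had to differ. A further 6 were not detected on any array, Alb and Ttr among them. The part of these cells in the STAT3 list was not tested.

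Of 15 genes on the array for glucose transport and insulin-responsive metabolism, 11 were tested, 1 called higher and 2 lower. The called share was 27.3%, beside 26.9% of all tested probes. Slc2a1, the glucose transporter GLUT1 that works without insulin, stood at 8.53, 8.48 and 8.73 in hSRY-OFF and at 9.56, 10.06 and 9.56 in hSRY-ON. It rose by 1.15 (SE 0.17, limma adjusted p = 0.00504). Slc2a4, the insulin-responsive transporter GLUT4 of muscle and fat, fell by 0.60 (limma adjusted p = 0.0206), and lost its call without any 1 hSRY-OFF array (0.0575 to 0.0882). Its change was -0.18 without background correction (0.0999), and with a variance trend it was not called (0.0524). Scd1, a desaturase of fatty acid synthesis, stood at 11.09, 11.12 and 11.11 in hSRY-OFF and at 10.53, 10.30 and 10.53 in hSRY-ON, and fell by 0.66 (limma adjusted p = 0.00905). None of the 8 markers of adipocytes, the main source of leptin, was tested, and 5, Lep among them, were not detected on any array.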

How the data were processed

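Total RNA of lung was amplified to biotinylated cRNA and hybridised to MouseRef-8 v2.0 BeadChips, per the labels and the study's methods. The authors deposited 1 table with an average intensity and a detection p-value per probe and array, not normalized, with gene symbols of the array's design. Intensities are a linear scale, and the bead number behind each value is not given in the sources used here, so that the number of arrays limits the precision. The submitters' processing notes name limma, and the methods name TCC, which suits counts and was not used here. Intensities were background-corrected from the deposited detection p-values with an offset of 16, normalized by quantiles and taken to log2 as in neqc (limma 3.58.1, R 4.3.3). Of 25697 probes, those detected (p under 0.05) on 3 or more of the 6 arrays were kept. All 6 arrays entered a fit with lmFit and eBayes, with Benjamini-Hochberg adjustment over the 13841 kept probes. An exact permutation test of 3 against 3 cannot go below p = 0.1 and was not used. Probes of the 9 genes were kept apart. For the pathway lists the kept probe with the highest mean stood for a gene, and up to 3 called genes in each direction were named by smallest p. Each array's sample came from its column name, 0 columns of values were left out, and no 2 arrays were identical. The genes and lists were chosen with earlier results of these data known. The alternatives were other background corrections, normalizations, filters and variance models, the replicate number as a block, and leaving out each array. Promoters came from RefSeq tables by symbol. Of the 5 genes with the profile nearest to a Pik3r1 probe, the last is not reported here.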

Additional observations from a re-analysis of the deposited data

How the results depend on the processing

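Under 16 alternatives, 6 of which left out an array, Irs2 and the 3 Pik3r1 probes kept their signs wherever they were tested (15 for ILMN_3040050, which was not detected on all 6 arrays). The count of called probes among the 9 was 3, and it was 1 without a detection filter. It was 0 to 5 with 1 array left out: 0 without hSRY-OFF replicate 1, 2 or 3, with 4, 3 and 3 at an unadjusted p under 0.05 in limma, and 5 without hSRY-ON replicate 1. Of all tested probes, 3729 were called, and 1507 to 4385 with 1 array left out, at 1507, 1624 and 2104 without hSRY-OFF replicate 1, 2 and 3 and 2397 without hSRY-ON replicate 2. Of the 103 pathway genes, 28 were called, and 14 to 36 with 1 array left out, at 15, 14 and 17 without hSRY-OFF replicate 1, 2 and 3. The sign of the Ghr probe ILMN_3138922 turned to 0.0041 without hSRY-ON replicate 3, and its change ran from -0.77 to 0.0041 with 1 array left out. That of Cish turned to -0.06 without hSRY-OFF replicate 1 and to -0.15 without hSRY-ON replicate 2, with a highest value of 0.26 without hSRY-ON replicate 3. The cause was not tested. Deviations of arrays with the same replicate number correlated at -0.107, 0.0958 and -0.0927, and 1 of 3 hSRY-OFF arrays correlated best with its own number. As the deviations are taken from means of 3 arrays, these values cannot show whether the replicate numbers pair the arrays. With the number as a block, 0 of the 9 probes were called in limma (4 at an unadjusted p under 0.05), and 22 pathway genes. Of the 21 named pathway genes that were called, 10 were called under every alternative: Ptpn6, Cblc, Fbxo32, Pdk4, Ppargc1a, Hp, Osmr, Timp1, Slc2a1 and Scd1. Insr, Irs1 and Lepr lay too near background to show a change.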
